A study of Mus musculus with 4 samples.

Results

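The membrane-bound mucins *Muc1*, *Muc3*, *Muc4*, *Muc13* and *Muc20* were followed in mouse colon on 4 dual-color Agilent microarrays. The members are the gene probes that carry these names in the raw array files, which are 12 of 41174 probes and 5 of 27251 gene names. *Muc4* has 6 of these probes, *Muc1* and *Muc3* have 2 each, and *Muc13* and *Muc20* have 1 each. Both *Muc3* probes carry that name only in the files of the tissue arrays. In the files of the sorted-cell arrays the same 2 probes are named by an Ensembl transcript, and they were matched by probe name.

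Membrane-bound mucins are transmembrane glycoproteins of the apical cell surface. Their long extracellular domains are densely O-glycosylated and form much of the glycocalyx, the layer that lies between the epithelium and the secreted mucus gel. In the intestine MUC13 and the products of the *Muc3* locus are mucins of the enterocyte brush border, MUC1 signals through its cytoplasmic tail, and MUC4 is known as a membrane-bound partner of ErbB2. MUC20 is a small family member described as a partner of the Met receptor.

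For the tissue experiment, mice with *Rspo3* floxed for deletion in Myh11+ cells (*Rspo3* KO, *Myh11CreErt2/Rspo3* fl/fl) were compared by their colon RNA with control mice (*Myh11CreErt2/Rspo3* +/+), both 2 weeks after tamoxifen at 4 mg/25 g bodyweight, to ask how the tissue's expression depends on stromal Rspo3. Each array paired 1 KO mouse with 1 control, and dye assignment alternated (n = 2 pairs). For the sorted-cell experiment, epithelial cells of *Axin2CreErt2/Rosa26-tdTomato* mice were sorted 24 h after tamoxifen into tdTomato+ (Axin2+) and tdTomato- (Axin2-) fractions by tdTomato, ESA and DAPI, and the cells of 3 mice were pooled, to ask how Wnt-responsive crypt cells differ from the rest of the epithelium. Both pools were set against each other on 2 arrays. This dye swap of the same RNA is technical and amounts to 1 replicate. All mice were on a C57BL/6 background, and per the study's methods they were males of 6 to 8 weeks. The Cre of the KO mice is active in Myh11+ cells, so *Rspo3* made by other cells is left intact, and the tdTomato label marks cells that had *Axin2* promoter activity at the time of tamoxifen and their early progeny. The labels name distal colon and the methods name colon, and they give different extraction reagents for the tissue RNA.

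The share of gene spots well above background was between 53.1% and 60.3% in each channel. The 2 *Rspo3* probes were at 0.10 and 0.17 and at -0.11 and -0.05 on the log2 scale of KO over control. The first was well above background in the KO of pair 2 and in 1 control channel, and the second in no channel. A loss of *Rspo3* could thus not be seen on these arrays. KO therefore means the channel labelled *Rspo3* KO. The *Lgr5* probe A_51_P218091 cleared background in both control samples and in neither KO sample. Its difference did not pass the test (limma adjusted p = 0.0992). The other *Lgr5* probe, A_52_P30169, cleared background in no channel. *Epcam*, the gene of the sorting antigen ESA, was measured in both sorted pools, with log2 ratios of 0.04 and 0.03, and 13 of 13 general epithelial markers were well above background in every sorted channel. Of 10 fibroblast markers, 3 or 4 were well above background in a sorted channel, and their summed level was between 916 and 1279 there against 81878 to 124123 in the tissue channels. Macrophage, endothelial, and enteric neuron and glia markers were also lower than in tissue. Smooth muscle markers summed to 11602 to 15203 against 39439 to 53945, and B cell markers to 13834 to 19549 against 25471 to 39856. The smooth muscle sums held 10 markers in sorted cells but only 8 of these in tissue, so they do not cover the same genes. T cell markers were higher, at 2129 to 2392 against 1019.5 to 1443. The source of this signal was not tested.

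Some of the *Muc4* and *Muc3* probes are shown here as the array files list them, 5′ to 3′ and in lower case, with no base marked. They are the probes of 60 bases whose letters hold no stop codon in at least 1 forward frame. Each has a listed position inside the transcript upstream of the most distal probe of the gene. The probes that represent *Muc4* in the tissue, A_51_P392277, and *Muc3* in the sorted cells, A_51_P450406, are not among them.
Muc4 probe A_52_P465239: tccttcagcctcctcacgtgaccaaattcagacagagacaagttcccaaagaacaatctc
Muc4 probe A_52_P578956: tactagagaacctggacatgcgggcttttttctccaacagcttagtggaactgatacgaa
Muc4 probe A_52_P578952: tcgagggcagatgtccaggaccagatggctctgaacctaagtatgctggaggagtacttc
Muc3 probe A_52_P536407: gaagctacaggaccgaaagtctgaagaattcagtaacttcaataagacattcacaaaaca
On mm9, the *Muc4* probes were listed on the plus strand at chr16:32755277-32755336, chr16:32778845-32778904 and chr16:32779190-32780912, where the last one covers 1723 bases for 60 bases of probe and so spans an intron. The *Muc3* probe was listed on the minus strand at chr5:137619766-137619825. The probe A_51_P392277 of *Muc4*, listed at chr16:32782392-32782451, lies 27115 bases downstream of A_52_P465239, 3547 bases downstream of A_52_P578956 and 3202 bases downstream of A_52_P578952. The other *Muc3* probe, A_51_P450406, was listed at chr5:137610855-137610914, which is 8911 bases downstream of A_52_P536407. *Muc3* lies next to a second gene of the same kind, *Muc3a*, so its values are uncertain as to the source gene. By their letters 46.7% of the bases of A_52_P465239, 45% of A_52_P578956, 53.3% of A_52_P578952 and 36.7% of A_52_P536407 are G or C.

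In the GRCm38.p6 annotation *Muc4*, *Muc13* and *Muc20* lie on chromosome 16, *Muc1* on chromosome 3 and *Muc3* on chromosome 5. *Muc4* (chr16:32735886-32782391, plus strand) and *Muc20* (chr16:32777419-32797435, minus strand) overlap tail to tail by 4973 bases. The *Muc20* probe is listed on the minus strand at chr16:32786143-32786202 of mm9.

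In the tissue, no membrane-bound mucin passed the test in the *Rspo3* KO, and in the sorted cells *Muc4* alone of the 5 genes was higher in Axin2+ cells past 1.5-fold. A probe was measured if, on each array of an experiment, 1 channel or both stood well above background, and the brightest measured probe represented its gene. By this rule 8 of the 12 probes and 4 of the 5 genes were measured in the tissue, where *Muc1* was not, and 10 of the 12 probes and all 5 genes in the sorted cells. Every measured member probe is shown by array in the plot of log2 ratios.

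**Figure D1:**
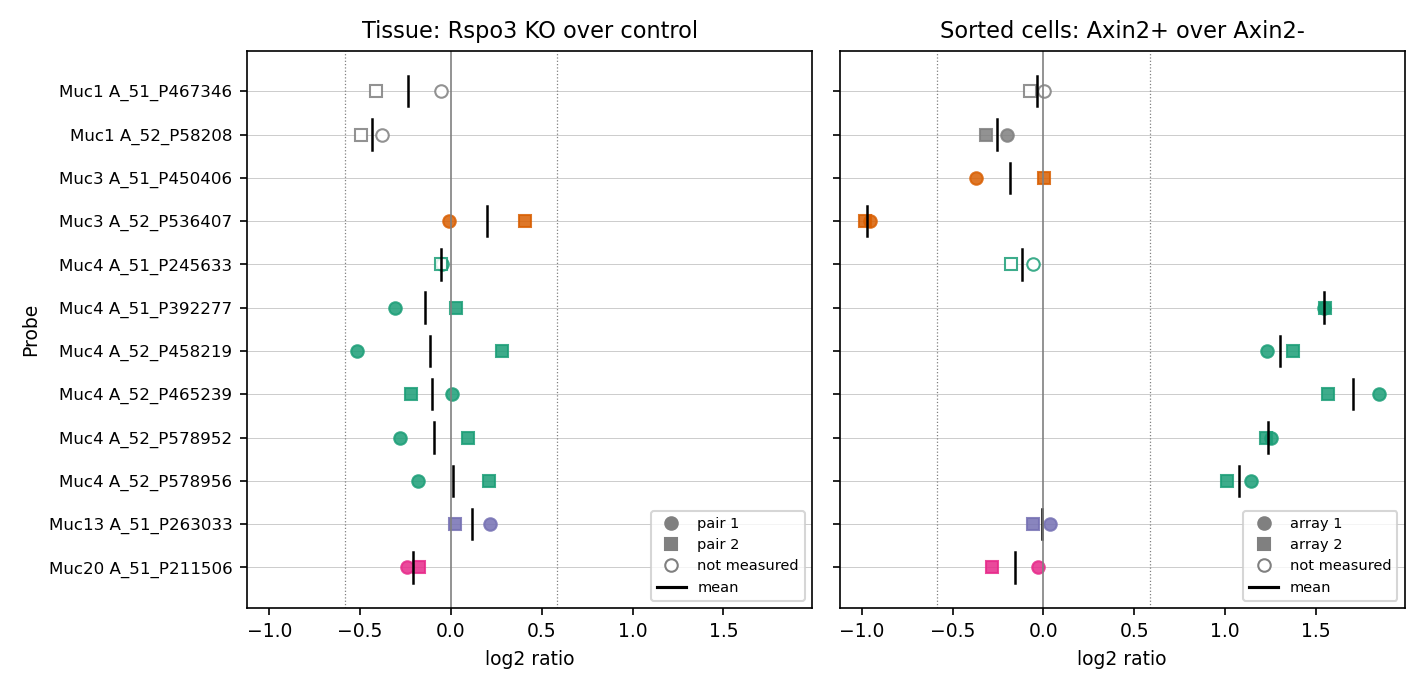
Log2 ratios of the 12 probes of membrane-bound mucins (rows) on each array of the tissue experiment (left, *Rspo3* KO over control, 2 pairs of mice) and of the sorted-cell experiment (right, Axin2+ over Axin2-, the same 2 pools with dyes reversed). Circles and squares are the first and second array, open symbols are probes not measured, black bars are means and dotted lines mark 1.5-fold; the 5 measured *Muc4* probes lie right of the dotted line in the sorted cells only, with means from 1.08 to 1.71.

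*Muc4* was the member past 1.5-fold between the sorted pools. On its brightest probe, A_52_P465239, the normalised log2 intensity was 12.94 and 12.53 in Axin2+ cells and 11.09 and 10.97 in Axin2- cells on arrays 1 and 2. The log2 ratios were therefore 1.85 and 1.57, with a mean of 1.71 that is 3.26-fold higher in Axin2+ cells. This mean was rank 14 from the highest of 15847 measured genes.

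The other measured *Muc4* probes gave the same direction on both arrays. A_51_P392277, the most distal one by position, had log2 ratios of 1.54 and 1.55 (2.92-fold), from levels of 11.65 and 11.63 in Axin2+ cells and 10.10 and 10.08 in Axin2- cells. A_52_P458219, which the files list with no position, had 1.23 and 1.37 (2.46-fold), A_52_P578952 had 1.25 and 1.23 (2.36-fold), and A_52_P578956 had 1.14 and 1.01 (2.11-fold). In each of the 5 probes both Axin2+ levels were above both Axin2- levels. The sixth probe, A_51_P245633, had no channel well above background on the 4 arrays. The mean over the 5 measured probes was 1.37. Of all genes measured in the sorted cells 14.8% were past 1.5-fold with both arrays alike, 7.87% higher and 6.94% lower in Axin2+ cells, and 1 of 5 membrane-bound mucins was among them. These values compare 1 pair of pools, so there is no test and no replicate check.

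**Figure D2:**
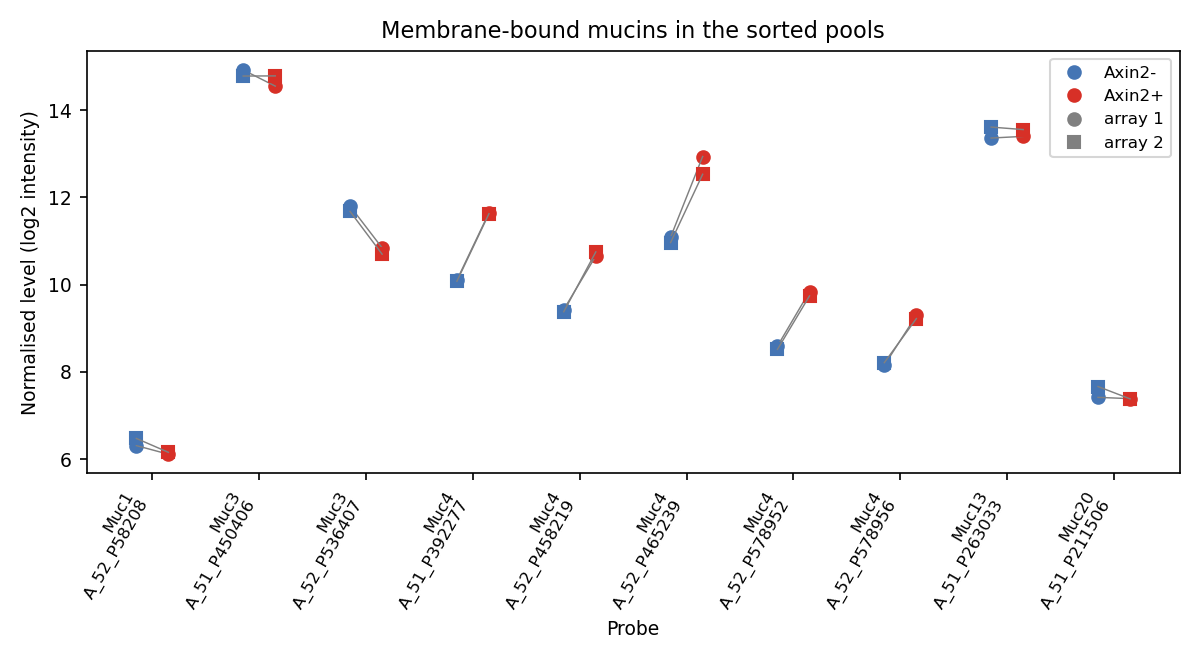
Normalised log2 intensity of the 10 measured probes in the Axin2- (blue) and Axin2+ (red) channel of each array, with lines joining both channels of an array (circles array 1, squares array 2). The *Muc4* probes slope up to Axin2+ cells, the *Muc3* probe A_52_P536407 slopes down from 11.80 and 11.68 to 10.84 and 10.70, and heights are not comparable between probes.

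*Muc3* was read differently by its 2 probes. On the brighter one, A_51_P450406, the levels were 14.55 and 14.79 in Axin2+ cells and 14.92 and 14.78 in Axin2- cells, so that the channels overlapped, with log2 ratios of -0.37 and 0.00. Its mean of -0.18 represents the gene and was not past 1.5-fold. On A_52_P536407 the log2 ratios were -0.96 and -0.98, a mean of -0.97 that is 1.96-fold lower in Axin2+ cells, and both Axin2+ levels were below both Axin2- levels. Taken by probe, *Muc3* would thus be lower in Axin2+ cells past 1.5-fold, and the mean over both probes was -0.58.

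*Muc13* differed less between the pools than between the arrays. Its levels were 13.40 and 13.55 in Axin2+ cells and 13.36 and 13.61 in Axin2- cells, and the log2 ratios were 0.04 and -0.06. With median centring in place of loess the mean was -0.31, which is not past 1.5-fold either. *Muc20* had levels of 7.39 and 7.38 in Axin2+ cells and 7.42 and 7.66 in Axin2- cells, with log2 ratios of -0.03 and -0.28. The software's own log ratio, which subtracts the background without an offset, gave -0.22 and -0.58 for this dim probe.

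*Muc1* was near the background in the sorted cells. Its probe A_52_P58208 was well above background in the Axin2- channel on both arrays and in the Axin2+ channel on neither. The levels were 6.31 and 6.47 in Axin2- cells and 6.11 and 6.16 in Axin2+ cells. This probe counted as measured through the Axin2- channel alone, so the filter itself favours a lower Axin2+ value. As the Axin2+ channel was not well above background, neither the direction nor the size of a difference was measured. The other *Muc1* probe was not measured, with log2 ratios of 0.00 and -0.07.

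In the *Rspo3* KO tissue the pairs of mice gave small and mostly unlike differences. *Muc4* was at log2 levels of 10.01 and 9.76 in the KO and 10.32 and 9.73 in the control on A_51_P392277, with log2 ratios of -0.31 and 0.03 in pairs 1 and 2 (mean -0.14, SD 0.24, 95% interval -0.69 to 0.41; limma adjusted p = 1.0). The channels overlapped. Its other 4 measured probes had means between -0.12 and 0.01, and in 4 of the 5 probes the KO was lower in pair 1 and higher in pair 2.

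*Muc3* was at log2 levels of 11.16 and 11.62 in the KO and 11.17 and 11.22 in the control on A_52_P536407, with log2 ratios of -0.01 and 0.41 (mean 0.20, 95% interval -0.36 to 0.75; limma adjusted p = 1.0). The brighter *Muc3* probe was left out on both tissue arrays because the extraction software marked its spot as non-uniform. With such spots kept it had log2 ratios of -0.18 and 0.46. *Muc13* had levels of 13.64 and 14.00 in the KO and 13.42 and 13.97 in the control, with log2 ratios of 0.22 and 0.02 (mean 0.12, 95% interval -0.42 to 0.65; limma adjusted p = 1.0). In *Muc3* and *Muc13* the levels of KO and control overlapped.

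*Muc20* was below its control in both pairs. The levels were 6.40 and 6.51 in the KO and 6.64 and 6.68 in the control, and the log2 ratios were -0.24 and -0.18 (mean -0.21, 95% interval -0.74 to 0.32; limma adjusted p = 1.0), so that the groups did not overlap but the difference did not pass the test. With the software's log ratio this dim probe was at -0.80 and -0.57, past 1.5-fold, with a limma adjusted p of 0.910. *Muc1* was not measured in the tissue. Its probes stood well above background only in the control of pair 2, with log2 ratios of -0.05 and -0.41 on A_51_P467346 and of -0.38 and -0.49 on A_52_P58208.

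Thus 0 of 4 measured genes passed limma's adjusted p of 0.05, and 0 had an unadjusted p under 0.05, which 4.63% of all genes had, while 0.241% of 15347 genes passed the adjusted p (0.13% higher and 0.111% lower in the KO). Past 1.5-fold with both pairs alike were 4.31% of genes (1.84% higher and 2.47% lower) and 0 of the 4 members. Each of the 4 intervals reaches past 1.5-fold in 1 direction, so that a change of that size lies within the error of 2 pairs. Pearson's r across genes, which are no independent replicates, was 0.03 for the pairs of mice and 0.92 for the arrays of the sorted pools. The sorted-cell arrays share the RNA of their pools, and the tissue arrays do not share mice.

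The brightness of a probe, its normalised log2 intensity averaged over both channels and both arrays, can be set between the experiments for the same probe. *Muc4* was brighter in sorted cells than in tissue on each of its 5 measured probes, by 5.38 on A_52_P465239, 2.71 on A_52_P458219, 1.63 on A_52_P578956, 1.35 on A_52_P578952 and 0.91 on A_51_P392277. Of 20043 probes measured, 0.0449% had a difference at or above that of A_52_P465239, which was at 6.50 in tissue and 11.88 in sorted cells. This share was 0.748% for A_52_P458219, 4.54% for A_52_P578956, 7.27% for A_52_P578952 and 15.3% for A_51_P392277. Among the *Muc4* probes with a position, the difference was larger the farther upstream the probe was listed. *Muc20* was brighter in sorted cells by 0.90, a difference that 15.4% of the probes reached, while *Muc3* differed by -0.04 on A_52_P536407 and *Muc13* by -0.28. The experiments differ in mice, cells, RNA isolation and slide, which cannot be told apart here.

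**Figure D3:**
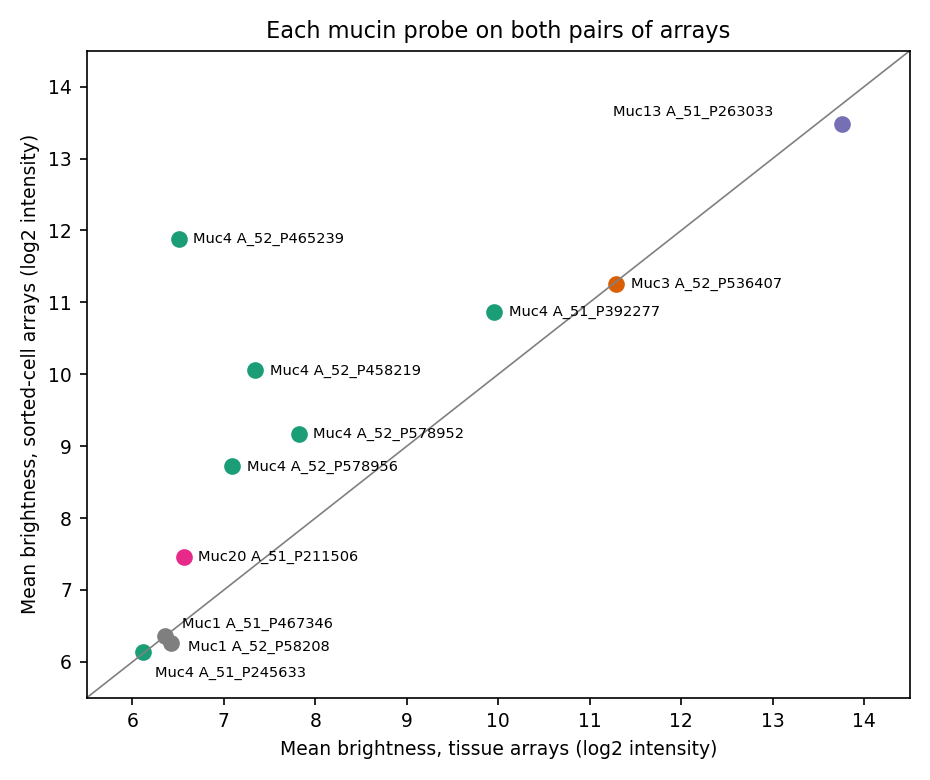
Brightness of each mucin probe on the tissue arrays (horizontal axis) against the sorted-cell arrays (vertical axis), as mean log2 intensity over both channels of both arrays, with the line of equality in grey. The 5 measured *Muc4* probes lie above the line, A_52_P465239 farthest at 6.50 and 11.88, while *Muc3*, *Muc13* and *Muc1* lie close to it; the *Muc3* probe left out in the tissue is not drawn.

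Of the genes measured in both experiments, 13604 in all, the ones whose 4 log2 ratios lay nearest to those of *Muc4* by Euclidean distance were *Mcm4* (distance 0.355), a subunit of the replicative helicase, and *Cenpf* (0.466) and *Cenpe* (0.483), which encode kinetochore proteins. *Mcm4* had ratios of -0.35 and -0.13 in the tissue pairs and 1.64 and 1.33 in the sorted pools. The nearest genes were *Erg28*, *Mrpl41* and *Arl4c* for *Muc3*, *Gtf2h5*, *1700029P11Rik* and *Slc17a5* for *Muc13*, and *Foxk2*, *Denn2b* and *Evl* for *Muc20*, at distances between 0.0443 and 0.138. The tissue and sorted-cell ratios of *Muc4* and *Muc3* come from different probes here. With 1 probe for all 4 ratios, a choice added after the data were seen, the nearest genes to *Muc4* on A_51_P392277 were *Mcm4*, *Hnrnpm* and *Chka*, and those to *Muc3* on A_52_P536407 were *Tlr1*, *Cd55* and *Ces2g*. With 4 ratios, of which 2 come from the same pools, this likeness is a description.

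Several secreted mucus genes were lower in Axin2+ cells. Of 9 measured secreted mucins and goblet granule partners 0 were higher and 5 were lower past 1.5-fold in Axin2+ cells, with a median log2 ratio of -1.18 beside -0.16 for the membrane-bound mucins and -0.01 for all genes. The largest differences were those of *Clca1* (-2.77 and -2.96), a secreted metalloprotease of mucus, *Zg16* (-2.75 and -2.65), a lectin of the mucus layer, *Tgm3* (-2.33 and -2.37), a transglutaminase, and *Fcgbp* (-1.87 and -1.87), a mucus protein of goblet cells. *Muc2*, the gel-forming mucin, was at 0.30 and 0.34 on the probe that represents it, between 0.22 and 0.76 in the mean over its 3 probes, so that it was higher past 1.5-fold on 1 probe. *Cd164*, a sialomucin and the only other membrane-anchored mucin measured in the sorted cells, was higher at 0.49 and 0.79.

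Of the genes that glycosylate mucins or anchor them at the apical surface, some were lower past 1.5-fold in Axin2+ cells and 0 were higher past 1.5-fold. Of 29 measured genes of mucin O-glycan synthesis 0 were higher and 8 were lower past 1.5-fold (median -0.35), among them the sialyltransferase *St3gal4* (-1.64 and -1.51), *Gcnt1* (-1.45 and -1.65), which makes the core 2 branch, *B3gnt7* (-0.82 and -1.13) and *St6galnac6* (-0.64 and -1.05). Of 16 genes of the apical scaffold and microvilli 0 were higher and 8 lower (median -0.53), with *Lgals3*, the galectin that binds mucin glycans, at -2.04 and -2.14, the actin bundler *Espn* at -1.36 and -1.5, and the brush border cadherins *Cdhr2* at -1.20 and -1.41 and *Cdhr5* at -1.11 and -1.40. Among 17 genes on the list of receptor partners and sheddases, 1 was higher and 0 lower (median 0.05). It was *Cftr*, the chloride channel, at 1.02 and 1.07, while *Erbb2* was at -0.59 and -0.47, the kinase *Src* at -0.43 and -0.56 and the sheddase *Adam9* at 0.38 and 0.35, none of them past 1.5-fold.

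**Figure D4:**
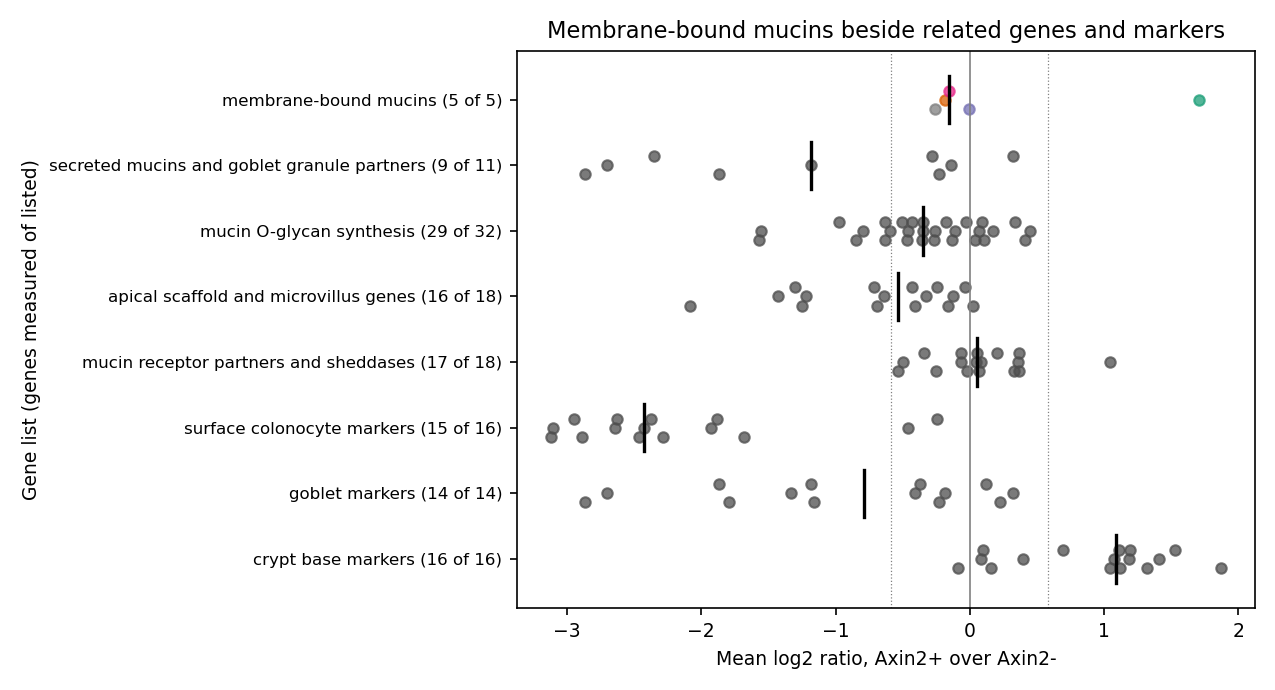
Mean log2 ratio of Axin2+ over Axin2- cells for each measured gene of 8 lists, with black bars for the list medians, dotted lines at 1.5-fold and the number measured of those listed beside each name. *Muc4* (green, 1.71) stands on the side of the crypt base markers (median 1.09), and the 4 other membrane-bound mucins lie between -0.26 and -0.01.

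The pools differed in cell type markers in the same experiment. Of 16 crypt base markers 11 were higher and 0 lower past 1.5-fold in Axin2+ cells (median 1.09, range -0.09 to 1.87), with *Lgr5* at 1.5 and 1.56 and *Axin2*, the gene of the sort, at 1.35 and 1.30. The summed level of these markers was 40274 and 39915 in Axin2+ cells and 17746 and 17594 in Axin2- cells. Of 15 measured surface colonocyte markers 0 were higher and 13 lower (median -2.43, range -3.12 to -0.24), with *Krt20* at -3.01 and -2.77, and their summed level was 156464 and 139881 in Axin2+ cells and 524349 and 485800 in Axin2- cells. Of 14 goblet markers 0 were higher and 7 lower (median -0.79). Of 9 enteroendocrine markers 0 were higher and 8 lower (median -2.11, range -3.76 to -0.38). Of 7 measured tuft markers 1 was higher and 4 lower (median -1.20, range -1.57 to 0.59). The mean ratio of *Muc4* lies within the range of the crypt base markers. That of the *Muc3* probe A_52_P536407 (-0.97) lies within the surface range, far from its median, and also within the enteroendocrine range. *Muc13* (-0.01) lies at the low end of the crypt base range, far from its median. *Muc1* (-0.26) lies at the high end of the surface range, far from its median. The *Muc1* ratio rests on a channel not well above background. *Muc20* and the *Muc3* probe A_51_P450406 lie between both ranges. All of these but *Muc4* also lie within the range of the goblet markers (-2.86 to 0.32) and within that of the tuft markers. The part of these markers in the mucin values was not tested, and in bulk samples fewer cells of a type and less RNA per cell cannot be told apart.

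In the tissue, 0 of the other mucins, coat genes and receptor partners passed limma's adjusted p of 0.05. The counts past 1.5-fold stand beside 4.31% of all genes. They were 1 of 4 other membrane-anchored mucins, 2 higher and 2 lower of 30 O-glycan genes, and 1 of 15 apical genes. These larger shares rest on few genes and were not tested. Of 4 measured genes listed as other membrane-anchored mucins 1 was higher past 1.5-fold in the KO, *Muc16*. This large mucin of wet epithelia was at 1.63 and 0.40 (limma adjusted p = 0.675). The others were *Mcam*, an adhesion molecule, at 0.36 and 0.36, *Cd164* at 0.57 and 0.11 and *Emcn* at -0.20 and 0.07. Of 30 genes of O-glycan synthesis 2 were higher and 2 lower past 1.5-fold in the same direction in both pairs (median 0.07), *B3gnt7* at 1.11 and 0.69, *St3gal3* at 1.26 and 0.05, *Gcnt1* at -0.64 and -1.70 and *Galnt12* at -0.52 and -0.90, and 0 of 30 passed limma's adjusted p. Of 15 apical genes 1 was lower, the scaffold protein *Pdzk1* at -1.08 and -0.40 (limma adjusted p = 0.811). *Myo1a*, a brush border myosin, was at -0.39 and -0.42, *Pls1* at 0.65 and 0.03 and *Rdx* at 0.57 and -0.02. Of 3 measured secreted mucins and partners 0 were past 1.5-fold, with *Fcgbp* at -0.41 and -0.64, *Tgm3* at 0.57 and -0.19 and *Muc2* at 0.37 and -0.20. Of 17 receptor partners and sheddases 0 were past 1.5-fold, with the sheddases *Adam9* at 0.56 and 0.31 and *Adam10* at 0.20 and 0.33, *Erbb2* at -0.54 and -0.16 and *Met* at 0.48 and -0.05.

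Marker levels moved in the tissue beside these values. Of 16 crypt base markers 7 were lower and 0 higher past 1.5-fold in the KO (median -0.42), with a summed level of 15772 and 14622 in the KO and 18498 and 21422 in the control. Of 10 measured B cell markers 6 were lower and 0 higher (median -0.65), 2 of them past limma's adjusted p, with a summed level of 33540 and 25471 in the KO and 31550 and 39856 in the control. The surface colonocyte markers were at a median of 0.51 in pair 1 and -0.31 in pair 2, and fibroblast markers at 0.44 and 0.39. Of 9 measured general epithelial markers 1 was higher and 1 lower past 1.5-fold (median -0.04), the transcription factors *Cdx2* at 2.33 and 1.91 (limma adjusted p = 0.0198) and *Elf3* at -0.61 and -0.60 (limma adjusted p = 0.912), while *Epcam* was at -0.07 and 0.04. The part of the markers in the tissue values was not tested.

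As the study is about Wnt signaling, the 250 bases before each start site in the RefSeq table of GRCm38.p6 were searched for short motifs on both strands. The Tcf/Lef core CTTTGA was present before 2 of the 6 listed start sites of the members and before 13.8% of 32851 start sites in the table. It lay 46 bases before the start of *Muc3*, on the reverse strand, and 237 and 182 bases before the second start of *Muc13*. The match at 182 shares letters with the reverse of the short Hnf4 site CAAAGTC, found before 1 of 6 member starts and 3.84% of all. The Cdx motif TTTATG was found before 1 of 6, 180 bases before the first start of *Muc13*, and 10.8% of all, and the Gata motif AGATAA before 0 of 6 and 9.99% of all. The windows of *Muc4* and *Muc3*, the genes with a probe past 1.5-fold in the sorted cells, are shown with matches in capitals, and the *Muc4* window holds none of the 4 motifs.
Muc4, chr16:32735636-32735885, plus strand: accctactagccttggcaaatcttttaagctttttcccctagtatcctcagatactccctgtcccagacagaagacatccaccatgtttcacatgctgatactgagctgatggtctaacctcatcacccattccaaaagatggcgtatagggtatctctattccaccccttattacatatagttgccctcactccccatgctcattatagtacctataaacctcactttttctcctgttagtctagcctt
Muc3, chr5:137166047-137166296, minus strand: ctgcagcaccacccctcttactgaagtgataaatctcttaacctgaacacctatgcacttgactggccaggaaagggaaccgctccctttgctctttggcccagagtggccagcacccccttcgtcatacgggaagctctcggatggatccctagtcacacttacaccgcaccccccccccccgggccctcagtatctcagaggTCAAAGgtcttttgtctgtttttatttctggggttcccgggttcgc
A match or its absence describes these letters in this window only.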

How the data were processed

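The authors hybridised Agilent 4x44K arrays, ran Feature Extraction and deposited each spot's signal and background intensity per dye and a log10 ratio of Cy5 over Cy3. The value table holds the same log10 ratio as deposited by the authors. Here intensities were background corrected with limma (version 3.58.1, R 4.3.3; normexp, offset 50, fitted without background outliers), normalised by loess within arrays and turned to KO or Axin2+ on top. Control and outlier spots were left out. Channel levels were quantile scaled between arrays by mean log2 intensity. Through RefSeq GRCm38.p6, accessions named 28473 of 41174 probes, symbols 5057 and synonyms 417, and the other 7227 keep the name given in the file.

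limma (lmFit, eBayes; checked on simulated data) tested the KO ratios against 0 at a Benjamini-Hochberg adjusted p of 0.05 over 15347 genes, from 1 residual and 6.76 prior degrees of freedom. Precision is limited by the number of arrays. The sorted pools have no test. Software p-values were not used.

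The members and gene lists were chosen with earlier results of these data known. Named are all members, *Rspo3*, *Axin2*, *Lgr5* and *Krt20*, in each experiment the 4 measured genes of largest absolute mean of each related list (fewer where fewer were measured), and the 3 genes nearest to each member. *Epcam*, *Cdx2*, *Elf3* and *Muc2* in the sorted cells were chosen after their values were seen. Alternatives changed the background correction, the ratio, the centring, the filter on dim probes, the choice of probe, the arrays, the threshold and the fit (4 arrays with a dye term). Keeping outlier spots and 1 probe for all ratios were added after the data were seen.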

Additional observations from a re-analysis of the deposited data

How the results depend on the processing

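*Muc4* was past 1.5-fold in Axin2+ cells in the analysis reported and under all alternatives run there, including a 2-fold threshold, with a mean log2 ratio between 1.37 and 1.85. No member passed limma's adjusted p in the *Rspo3* KO under any alternative with a test (adjusted p between 0.788 and 1.0). Means that were not called changed sign with 1 array left out, to 0.03 for *Muc4* and -0.01 for *Muc3* in the KO and to 0.00 for *Muc3* and 0.04 for *Muc13* in Axin2+ cells, and that of *Muc13* was 0.02 with the software's log ratio. The number of members past 1.5-fold in Axin2+ cells was 2 in place of 1 with the software's log ratio and with the value table, where *Muc1* was added through a ratio to a channel not well above background, and 2 with each probe by itself, where *Muc3* was added. In the KO, limma's adjusted p was passed by 37 genes in the analysis reported (20 higher and 17 lower), and by 72 genes with no background correction (32 and 40), 133 with an offset of 16 (58 and 75), 1 with the background fitted to all spots, 128 with the software's log ratio and with the value table (55 and 73), 8 with median centring (6 and 2), 5 with the mean over probes (4 and 1), 242 with 4 arrays and a dye term (99 and 143), and 0 with limma and no filter on dim probes (1202 at an unadjusted p under 0.05). The fit of 4 arrays takes part of its spread from the technical swap of the sorted pools, which also gave the smallest adjusted p of a member. The number past 1.5-fold in the KO, 662 (283 higher and 379 lower), was 361 with the background fitted to all spots, 1471 with the software's log ratio and with the value table, 182 at 2-fold, and between 1552 (688 and 864, without pair 1) and 2400 (1252 and 1148, without pair 2) with 1 pair left out. The number past 1.5-fold in Axin2+ cells, 2346 (1247 higher and 1099 lower), was 5168 with the software's log ratio and with the value table. It was 1916 with the mean over probes (938 and 978), 1087 with median centring (497 and 590) and 670 at 2-fold (269 and 401). The larger side turned with the mean over probes, with median centring and at 2-fold. The causes were not tested. No paired analysis was possible because each array's ratio already compares 1 pair of mice or the same 2 pools, so no block is left to add. Signal over background limits *Muc1* and *Muc20*.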
